A study of Homo sapiens with 6 samples.

Results

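Collagens are the triple-helical proteins of the extracellular matrix, and each is built from alpha chains that separate genes encode. The deposited table of 34869 genes held 44 protein-coding collagen chain genes, taken as every symbol made of COL, a number, the letter A and a second number. The cells were NCI-H295R, an established line of human adrenocortical carcinoma cells that makes adrenal steroids. A lentivirus delivered either a non-targeting control short hairpin RNA (shRNA; 3 libraries, called shCtrl) or an shRNA against TPD52 (3 libraries, called shTPD52). All 6 libraries therefore came from 1 cell line that had been transduced, and the labels do not state how many hairpins against TPD52 were used. Separate cultures are not stated for the libraries of a group, so p-values here reflect only how these samples scatter, and that scatter may be technical. RNA levels are given in FPKM, reads scaled to gene length and to library size.

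Fibrillar collagens (types I, II, III, V, XI, XXIV and XXVII) assemble into the fibrils that give tissue its tensile strength, with types V and XI held to set where fibrils start and how wide they grow. Type IV collagen forms the network of basement membranes, the sheets on which epithelial and endocrine cells rest. Type VI makes beaded filaments, type VII anchors epithelium to the matrix below, FACIT collagens decorate fibrils, multiplexins lie near basement membranes, and transmembrane collagens stay in the plasma membrane. In the adrenal gland, matrix is made both by steroid-producing cells and by the fibroblasts of the capsule and stroma, whereas a cell line holds no stroma.

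Library totals ran from 29544341 to 38396624 reads, and collagen genes took between 0.117% and 0.167% of the reads. TPD52 RNA was 1.30 ± 0.12 FPKM in shCtrl and 0.640 ± 0.013 in shTPD52 (SD, n = 3 each), and the groups did not overlap (log2 fold change -0.65, adjusted p = 0.0218 in limma, passed in 12 of 21 alternatives). On the first principal component of all genes tested (61% of the variance), shTPD52 replicate 2 lay at 0.29, while shTPD52 replicates 1 and 3 lay at 27.3 and 35.3 and shCtrl between -24.1 and -16.4. Collagen results are therefore given with and without it. Replicate 2 was singled out by lying nearest shCtrl on this component, so more calls without it are to be expected from that choice. TPD52 RNA was at 0.630, 0.635 and 0.655 FPKM in shTPD52 replicates 1, 2 and 3, so replicate 2 did not stand out in it. Reads of mitochondrially encoded genes made up 17.5% to 18.5% of the shCtrl libraries and 19.6% to 24.3% of the shTPD52 libraries. Rescaling to the other reads moved the median log2 fold change of all genes from -0.11 to -0.043 and left 2 collagens called lower, against 4 on the deposited scale. Of all 12782 genes tested, 1213 were called lower and 976 higher after it, against 1621 and 720 on the deposited scale. All 8 adrenocortical markers averaged 1 FPKM or more over the 6 libraries. Of 8 fibroblast markers, FBLN1 and FAP reached 1 FPKM, and the list summed to between 7.01 and 7.34 FPKM in shCtrl and between 7.15 and 7.74 in shTPD52. Of the other fibroblast markers, PDGFRA, PDGFRB, LUM and POSTN averaged at most 0.044 FPKM in either group, and DCN at most 0.104. THY1 averaged 0.411 FPKM in shCtrl and 0.621 in shTPD52. Of 5 markers of smooth muscle and pericytes, RGS5 and ACTA2 averaged over 1 FPKM, at 13.9 and 5.32 FPKM in shCtrl and 15.3 and 6.03 in shTPD52. That list summed to between 19.0 and 22.04 FPKM in shCtrl and between 20.4 and 24.6 in shTPD52. MYH11 and CNN1 averaged at most 0.294 FPKM in either group, and TAGLN averaged 0.668 in shCtrl and 0.640 in shTPD52. The part of this list in the collagen results was not tested. None of 5 endothelial or 4 leukocyte markers averaged 1 FPKM.

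The cells expressed a broad but uneven set of collagens. Of the 44 genes, 16 averaged at least 1 FPKM over the 6 libraries, 8 lay between 0.1 and 1 FPKM, 20 lay above 0 and below 0.1 FPKM, and 0 were listed at 0 in every library. The most abundant chain was that of type XV, COL15A1, a multiplexin of basement membrane zones, with 23.2% of the summed collagen FPKM. With COL11A1, a chain of fibrillar type XI, the share reached 43.1%, and with COL6A2, COL3A1 and COL4A2 it reached 77.7%. COL1A1, the principal chain of type I collagen, averaged 0.801 FPKM. COL1A2, its partner chain in ordinary type I trimers, was nearly silent at 0.0084 FPKM, or 12 reads over the 3 shCtrl libraries and 6 over the 3 shTPD52 libraries. RNA of COL3A1, COL5A1, COL5A2, COL6A1, COL6A2 and COL11A1 thus averaged above that of COL1A1. Not every chain of those types did so by much, as COL11A2 averaged 0.968 FPKM, while COL5A3 (0.167 FPKM) and COL6A3 (0.120 FPKM) lay below COL1A1.

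**Figure D1:**
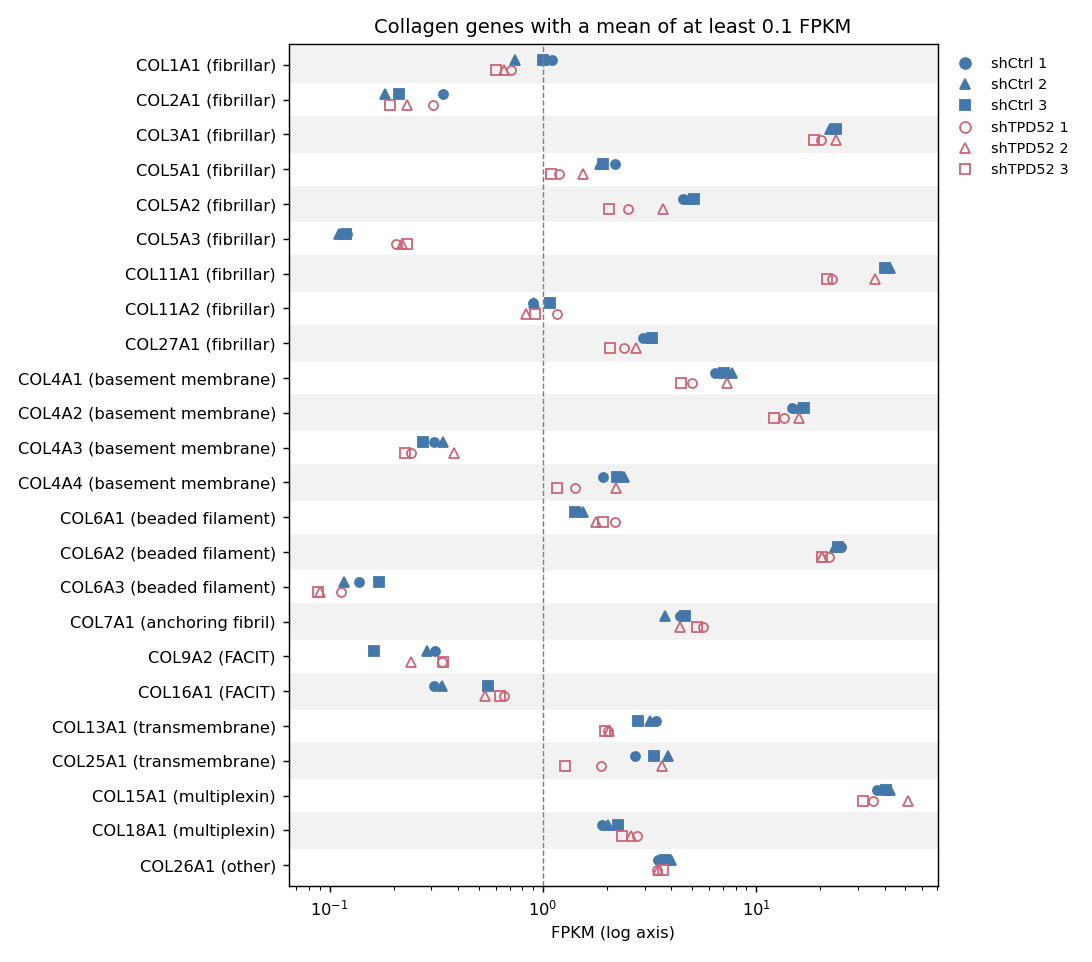
Level of each collagen gene with a mean of at least 0.1 FPKM (log axis), 1 symbol per library, shCtrl filled and shTPD52 open. The dashed line marks 1 FPKM. COL15A1 and COL11A1 lie at the top of the range, COL11A1 with all shTPD52 libraries below all shCtrl libraries.

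By class, 5 of 11 fibrillar genes reached 1 FPKM, as did 3 of 6 type IV genes, 2 of 5 type VI genes, COL7A1, 2 of 4 transmembrane genes and 2 of 2 multiplexins. None of the 10 FACIT genes or the 3 genes of hexagonal networks did. COL26A1, placed in no class, was at 3.74 ± 0.26 FPKM in shCtrl. Summed FPKM of all collagen genes was 179, 189 and 187 in shCtrl replicates 1, 2 and 3 and 148, 187 and 135 in shTPD52 replicates 1, 2 and 3. The sum in shTPD52 replicate 2 lay within the shCtrl range, and the other two shTPD52 libraries lay below it. The fibrillar genes summed to 76.3 ± 0.62 FPKM in shCtrl and to 56.1 ± 12.0 in shTPD52. Their share of collagen FPKM was 42.2%, 40.7% and 41.0% in shCtrl and 34.6%, 37.3% and 34.9% in shTPD52, with no overlap. The multiplexin share was 21.6%, 23.6% and 22.8% in shCtrl and 25.6%, 28.9% and 25.3% in shTPD52, again without overlap. The multiplexin sum itself was 41.9 ± 3.03 FPKM in shCtrl and 42.1 ± 10.6 in shTPD52. Shares of the transmembrane genes (3.48% ± 0.24 in shCtrl, 2.74% ± 0.31 in shTPD52) did not overlap either. Nor did those of the FACIT genes (0.457% ± 0.050 in shCtrl, 0.785% ± 0.15 in shTPD52). The type IV share was 13.7% ± 0.58 in shCtrl and 13.5% ± 0.26 in shTPD52. A sum of this kind is carried by its few most abundant genes, and shares of 1 total cannot move independently.

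**Figure D2:**
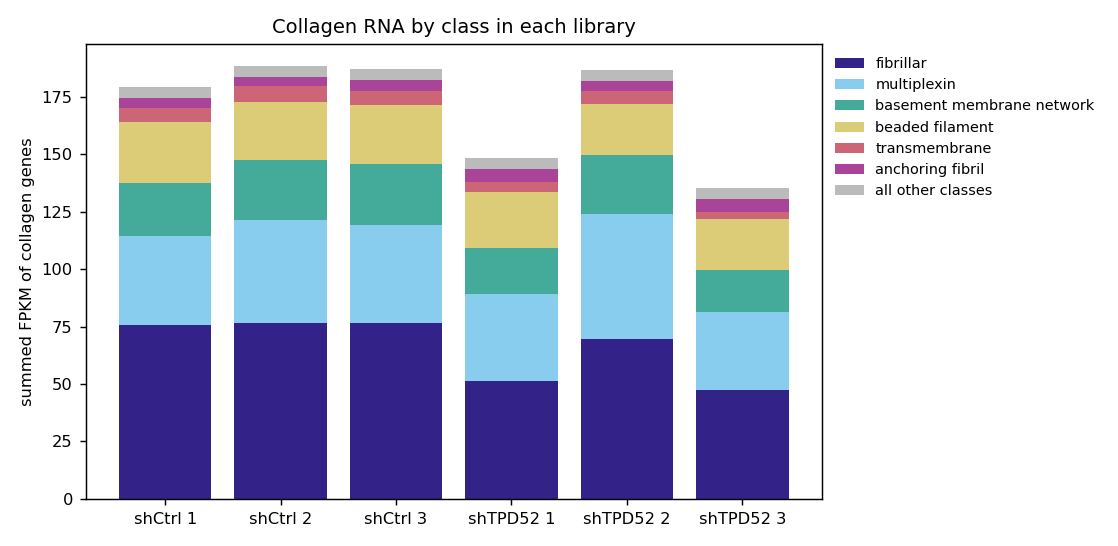
Summed FPKM of collagen genes in each library, stacked by class (axis from 0). The fibrillar block is shorter in shTPD52 replicates 1 and 3 than in any shCtrl library, and the total of shTPD52 replicate 2 lies at the shCtrl level.

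The study's comparison asks what lowering TPD52 changes in these cells. Differences were tested for the 16 genes at 1 FPKM or more with limma on log2(FPKM + 0.5), adjusted over all 12782 genes tested, a scale that understates changes of low genes. COL5A2, COL11A1, COL13A1 and COL5A1 were lower in shTPD52, 0 collagens were higher, and 12 did not pass. Of all genes tested 18.3% were called, 12.7% lower and 5.63% higher, which is the background to 4 of 16. At an unadjusted limma p under 0.05 the count of collagens was 7 of 16, or 43.75%, beside 38.6% of all genes. With limma-voom on recovered reads, 5 collagens were lower and 0 higher, beside 16.6% and 6.02% of all genes. In bulk RNA, fewer cells of a kind and less RNA per cell cannot be told apart. The median log2 fold change of the 16 was -0.27, against -0.11 for all genes tested. In direction, 13 of the 16 were negative, and COL6A1, COL7A1 and COL18A1 were positive. The negative median of all genes tested means that most of them were negative too.

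The largest of the changes that passed was that of COL5A2, the alpha 2 chain of fibril-forming type V collagen (chr2:189031896-189225312, minus strand, GRCh38). It measured 4.52, 4.83 and 5.10 FPKM in shCtrl and 2.51, 3.65 and 2.04 FPKM in shTPD52. All shTPD52 libraries lay below all shCtrl libraries, with replicate 2 the nearest to them. On the log2 scale COL5A2 fell by 0.75 (SE 0.18, limma adjusted p = 0.0292). COL5A1, which supplies the alpha 1 chain of the same trimer (chr9:134641774-134844843, plus strand), measured 2.19, 1.85 and 1.92 FPKM in shCtrl and 1.19, 1.55 and 1.09 FPKM in shTPD52. The groups did not overlap, and COL5A1 fell by 0.49 (SE 0.14, limma adjusted p = 0.0496), just under the threshold. It passed in only 6 of 20 alternative settings, against 13 of 20 for COL5A2.

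COL11A1, the alpha 1 chain of type XI collagen (chr1:102876467-103108872, minus strand), was the most abundant fibrillar gene. Its FPKM were 40.4, 42.6 and 40.2 in shCtrl and 22.6, 36.0 and 21.5 in shTPD52. The shCtrl libraries were tightly grouped, and shTPD52 replicate 2 lay closer to them than to the other two shTPD52 libraries. The mean went from 41.1 ± 1.30 to 26.7 ± 8.08 FPKM (SD, n = 3 each), and as a log2 difference COL11A1 fell by 0.65 (SE 0.18, limma adjusted p = 0.0432). COL13A1 encodes a transmembrane collagen of cell-matrix junctions (chr10:69801867-69964275, plus strand). It measured 3.40, 3.19 and 2.78 FPKM in shCtrl and 2.03, 2.05 and 1.96 FPKM in shTPD52. Unlike the 3 fibrillar genes, COL13A1 was at nearly the same level in all shTPD52 libraries, replicate 2 included. COL13A1 fell by 0.53 (SE 0.11, limma adjusted p = 0.0225).

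Sequence just before the gene start was looked at for the genes that passed, since it is where basal transcription factors bind. The RefSeq promoter table (GRCh38.p14) held COL11A1, COL13A1 and COL5A1 but not COL5A2, and COL7A1 is shown beside them as a collagen whose level did not pass and whose fold change was positive. Capitals mark motifs on either strand. The GC box was searched as GGGCGG and, on the other strand, as CCGCCC. The CCAAT box was searched by its name and, on the other strand, as ATTGG. The TATA box was searched as TATAAA and, on the other strand, as TTTATA. No matches overlap in the runs shown. Each run lies before the RefSeq start, holds no base that is exonic in GENCODE 29, and is written 5′ to 3′ in the direction of the gene. That of COL11A1 lies within the first intron of 1 GENCODE transcript that starts further upstream.
COL11A1: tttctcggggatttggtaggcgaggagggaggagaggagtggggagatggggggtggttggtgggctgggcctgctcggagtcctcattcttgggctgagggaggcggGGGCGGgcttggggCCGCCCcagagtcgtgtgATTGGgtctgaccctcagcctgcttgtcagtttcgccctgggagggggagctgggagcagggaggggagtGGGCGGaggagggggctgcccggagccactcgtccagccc
COL13A1: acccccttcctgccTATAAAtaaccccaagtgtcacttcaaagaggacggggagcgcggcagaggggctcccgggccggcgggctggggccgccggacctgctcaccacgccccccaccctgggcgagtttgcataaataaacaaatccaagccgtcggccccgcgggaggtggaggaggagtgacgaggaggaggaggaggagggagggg
COL5A1: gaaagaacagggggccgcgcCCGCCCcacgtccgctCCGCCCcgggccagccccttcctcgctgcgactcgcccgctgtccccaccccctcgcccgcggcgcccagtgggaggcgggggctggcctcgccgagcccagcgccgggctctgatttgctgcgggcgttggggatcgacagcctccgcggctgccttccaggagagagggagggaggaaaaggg
COL7A1: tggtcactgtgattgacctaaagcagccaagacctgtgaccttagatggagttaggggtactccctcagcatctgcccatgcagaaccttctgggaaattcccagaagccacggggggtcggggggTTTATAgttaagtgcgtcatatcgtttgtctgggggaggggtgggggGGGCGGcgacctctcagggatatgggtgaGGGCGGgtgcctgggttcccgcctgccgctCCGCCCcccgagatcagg
The runs lie at chr1:103108523-103108772 (minus strand), chr10:69801656-69801866 (plus), chr9:134641553-134641773 (plus) and chr3:48595330-48595579 (minus). COL11A1 held 3 GC boxes and 1 CCAAT box, COL5A1 held 2 GC boxes, COL13A1 held 1 TATA box and no GC box, and COL7A1 held 3 GC boxes and 1 TATA box. No motif was in the window of all 3 genes that passed. Of all 27305 promoters in the table, 42.3% held a GC box, 33.0% a CCAAT box and 11.1% a TATA box within 250 bases before the start. Among the 13 tested collagens with an entry (the first one listed for each gene), 9 held a GC box, 3 a CCAAT box and 3 a TATA box. These matches are letters in a window, counted at any position and on either strand, so a TATA match need not be a working TATA box. They say nothing of binding.

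Of the other fibrillar genes, COL3A1, the chain of type III collagen of skin, vessels and other soft tissue, measured 23.0, 22.2 and 23.8 FPKM in shCtrl and 20.1, 23.7 and 18.6 FPKM in shTPD52. The groups overlapped through shTPD52 replicate 2, and the log2 fold change of -0.15 did not pass (limma adjusted p = 0.302). COL27A1, a fibrillar chain of cartilage, was at 3.13 ± 0.16 FPKM in shCtrl and 2.40 ± 0.33 in shTPD52 without overlap, and its log2 fold change of -0.33 did not pass either (limma adjusted p = 0.0880). COL11A2, a second chain of type XI collagen, lay just under the level tested, at 0.963 ± 0.10 FPKM in shCtrl and 0.974 ± 0.17 in shTPD52. COL1A1 measured 1.10, 0.737 and 1.01 FPKM in shCtrl and 0.706, 0.654 and 0.601 FPKM in shTPD52. The lowest shCtrl library of COL1A1 was only slightly above the highest shTPD52 library. COL5A3, a further chain of type V collagen, had its shTPD52 libraries above its shCtrl libraries, at 0.117 ± 0.0054 FPKM in shCtrl and 0.218 ± 0.013 in shTPD52. When all genes of at least 0.1 FPKM were tested, neither COL1A1 (log2 fold change -0.32, limma adjusted p = 0.190) nor COL5A3 (log2 fold change 0.22, limma adjusted p = 0.266) passed, and COL13A1 was the only collagen called. Under that filter 4.12% of genes were called lower and 2.23% higher. With no filter 0 of the 44 collagens were called, 9 (20.5%) had an unadjusted limma p under 0.05 beside 19.1% of all genes, and 1.02% of all genes were called lower and 0.508% higher.

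No type IV gene passed. COL4A2 measured 14.7, 15.9 and 16.7 FPKM in shCtrl and 13.4, 15.9 and 12.1 FPKM in shTPD52. COL4A1, whose product joins COL4A2 in the most widespread basement membrane trimer, measured 6.39, 7.69 and 7.06 FPKM in shCtrl and 4.98, 7.30 and 4.45 FPKM in shTPD52. For both genes shTPD52 replicate 2 sat inside the shCtrl range and the other two libraries below it. The log2 fold changes were -0.34 for COL4A1 (limma adjusted p = 0.182) and -0.19 for COL4A2 (limma adjusted p = 0.240). COL4A4, a chain of the type IV network best known from kidney glomeruli, showed the same arrangement, with 2.17 ± 0.25 FPKM in shCtrl and 1.59 ± 0.54 in shTPD52 (log2 fold change -0.38, limma adjusted p = 0.179). Its partner COL4A3 was at 0.308 ± 0.034 and 0.283 ± 0.087 FPKM, and the X-linked COL4A5 and COL4A6 were each under 0.04 FPKM in both groups.

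The type VI chains differed in sign. COL6A1 measured 1.46, 1.54 and 1.41 FPKM in shCtrl and 2.17, 1.78 and 1.92 FPKM in shTPD52, so that every shTPD52 library lay above every shCtrl library. COL6A2 measured 24.9, 23.5 and 24.1 FPKM in shCtrl and 22.04, 20.3 and 20.3 FPKM in shTPD52, with every shTPD52 library below. Neither passed, at log2 fold changes of 0.31 for COL6A1 (SE 0.12, limma adjusted p = 0.1003) and -0.21 for COL6A2 (SE 0.076, limma adjusted p = 0.0888). COL6A3, the largest chain of the usual type VI trimer, was at 0.142 ± 0.027 FPKM in shCtrl and 0.0974 ± 0.014 in shTPD52. Groups did not overlap for 8 of the 16 tested collagens, 2 with shTPD52 higher (COL6A1 and COL18A1) and 6 with it lower. Among all genes tested, groups did not overlap for 42% of genes, 13.8% with shTPD52 higher and 28.3% with it lower.

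COL7A1, which forms the anchoring fibrils under epithelia, measured 4.37, 3.73 and 4.65 FPKM in shCtrl and 5.62, 4.40 and 5.29 FPKM in shTPD52. The groups overlapped, and the log2 fold change was 0.24 (limma adjusted p = 0.198). The multiplexins differed from each other in spread. COL18A1, whose C-terminal fragment is endostatin, measured 1.90, 2.01 and 2.24 FPKM in shCtrl and 2.77, 2.59 and 2.35 FPKM in shTPD52, without overlap (log2 fold change 0.27, limma adjusted p = 0.131). COL15A1 measured 36.7, 42.5 and 40.4 FPKM in shCtrl and 35.2, 51.5 and 31.8 FPKM in shTPD52. For COL15A1, shTPD52 replicate 2 was the highest of the 6 libraries and the other two shTPD52 libraries were the lowest, with a log2 fold change of -0.042 and a 95% interval from -0.43 to 0.35. COL25A1, a transmembrane collagen first found in amyloid plaques, had shTPD52 replicate 2 inside the shCtrl range and the other two below it, at 2.70, 3.86 and 3.31 FPKM in shCtrl and 1.87, 3.62 and 1.27 FPKM in shTPD52. Its log2 fold change of -0.54 was as large as that of COL13A1 but did not pass (SE 0.29, limma adjusted p = 0.204). COL26A1 was at 3.51 ± 0.11 FPKM in shTPD52, with a 95% interval of its log2 fold change from -0.30 to 0.15.

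Below 0.1 FPKM the evidence is a handful of reads. COL6A5, a type VI chain, had 0 reads in all shCtrl libraries and 5, 11 and 9 reads in shTPD52, at least 8.12-fold higher against a floor of 3 reads over the group. COL17A1, the hemidesmosome collagen, had 0, 0 and 2 reads in shCtrl and 20, 6 and 9 reads in shTPD52. Scaled to library totals the ratio for COL17A1 was 17.1, with a 95% counting interval from 4.38 to 146, which covers counting error only. Both that interval and the floor for COL6A5 take each read as an independent count, which fails if mates were counted singly. Together with COL5A3, these were the 3 collagens under 1 FPKM for which every shTPD52 library was the higher, while COL1A1, COL6A3 and COL10A1 were the 3 with every shTPD52 library lower. Among all genes above 0 and under 1 FPKM, those shares were 6.57% and 6.85%. COL19A1 had 0 reads in shCtrl and 3 in shTPD52, which is at the floor, and COL9A3 rested on 17 reads in shCtrl and 52 in shTPD52. At least 10 reads in every library were found for 26 of the 44 genes. The FACIT gene COL16A1, at 0.398 ± 0.13 FPKM in shCtrl and 0.606 ± 0.064 in shTPD52, overlapped between the groups. COL2A1 and COL9A2, cartilage collagens, were at 0.245 ± 0.085 and 0.253 ± 0.081 FPKM in shCtrl, with overlapping shTPD52 values.

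**Figure D3:**
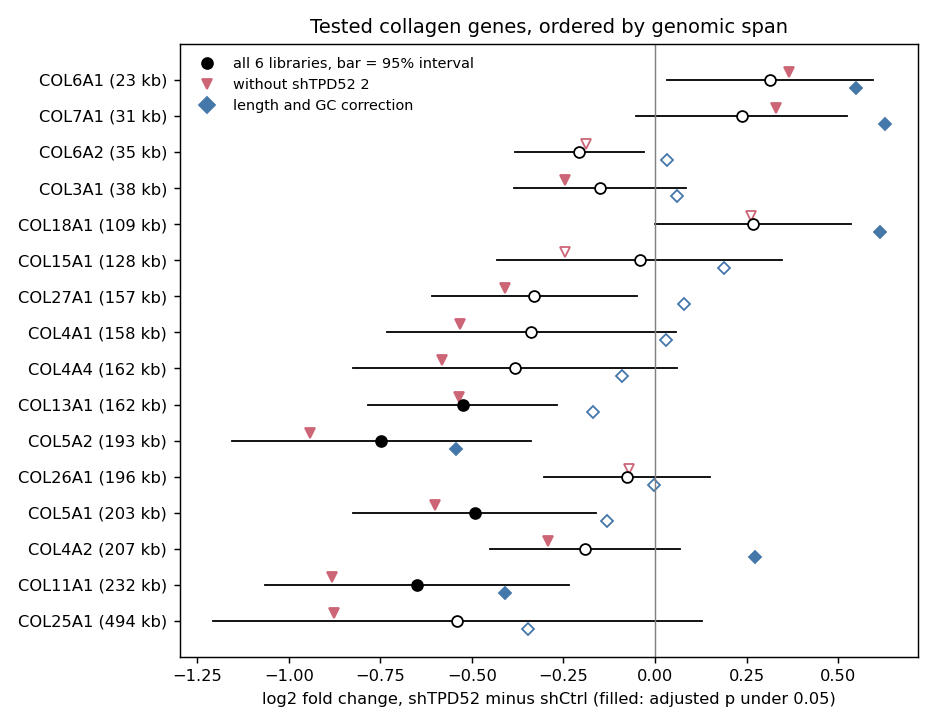
Log2 fold change (shTPD52 minus shCtrl) of the 16 tested collagens, ordered by genomic span; circles with 95% intervals are all 6 libraries, triangles leave out shTPD52 replicate 2, and diamonds follow the length and GC correction; filled symbols passed. COL6A1, the shortest, lies above 0, and 3 of the 4 genes that passed span over 180 kb.

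Collagen genes are long and split into many exons, and the fold changes varied with the length of genomic DNA from gene start to end, called span here. None of the 4 tested genes under 100 kb passed, nor did 5 of the 6 between 100 and 180 kb, where COL13A1 was the exception. Of the 6 genes of at least 180 kb, 3 were lower (COL5A2, COL5A1 and COL11A1). Medians of the log2 fold change were -0.15 for 3 collagens of 30 to 100 kb, -0.33 for 6 of 100 to 180 kb and -0.52 for 6 of at least 180 kb, and COL6A1 alone lay under 30 kb. All genes tested had medians of -0.033 under 30 kb, -0.16, -0.28 and -0.28 at 180 kb and over, and shares called lower of 10.97%, 13.8%, 17.3% and 16.8%. Across the 16 collagens, Spearman's rho between span and fold change was -0.72, and across 12707 genes it was -0.28. For exonic length the values were -0.35 and -0.34. For GC content, taken from each gene's longest transcript, they were 0.72 over the collagens and -0.034 over all genes. Span and GC content were themselves related among the collagens (rho -0.55), all genes share the same 6 libraries, and genes are not independent replicates, so these are descriptions.

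Removing each library's trend on exonic length and GC content took the median of the 16 collagens from -0.27 to 0.032. In that fit COL5A2 (log2 fold change -0.54, limma adjusted p = 0.0235) and COL11A1 (-0.41, limma adjusted p = 0.0452) were still called lower. COL13A1 (-0.17, limma adjusted p = 0.289) and COL5A1 (-0.13, limma adjusted p = 0.419) did not pass there. For COL13A1 the correction used a length of 11.5 kb worked back from FPKM, beside 5.89 kb of exons in GENCODE 29. COL18A1, COL6A1, COL7A1 and COL4A2 were called higher there, with log2 fold changes of 0.61, 0.55, 0.63 and 0.27. The background shares in that fit were 10.7% higher and 10% lower. The rank relation with span stayed at rho -0.71 among the collagens, against -0.10 over all genes. That with GC content likewise stayed at rho 0.72 among the collagens, against 0.0072 over all genes. Removing the trend on span instead, a step chosen after seeing the data, called COL18A1 and COL6A1 higher and COL5A2 and COL11A1 lower, with 10.4% of all genes called in each direction. In that fit the relation with span was rho -0.65 among the collagens and -0.022 over all genes. Median-ratio scaling moved the median of all genes from -0.11 to 0.00054 and called 1 collagen higher (COL18A1) and 2 lower (COL5A2 and COL13A1), beside 8.47% and 8.12% of all genes. COL5A2 was thus called lower under the deposited scale, both corrections and median-ratio scaling, and COL6A1, COL7A1 and COL18A1 were positive in all 20 alternatives run for each.

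**Figure D4:**
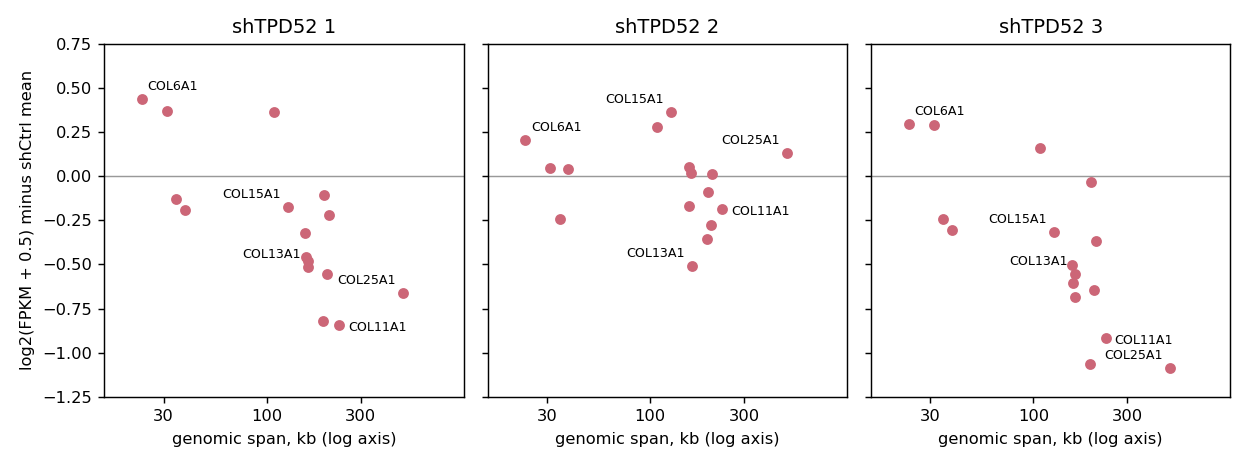
Deviation of each tested collagen from its shCtrl mean in log2(FPKM + 0.5), 1 panel per shTPD52 library, against genomic span in kb (log axis). Most of the longest genes lie well below 0 in replicates 1 and 3 and nearer to 0 in replicate 2, where COL13A1 is the lowest.

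The 3 shTPD52 libraries did not contribute alike. The median deviation of the 6 collagens of at least 180 kb from their shCtrl means was -0.61, -0.14 and -0.78 in replicates 1, 2 and 3. For all genes of that span it was -0.35, -0.031 and -0.46, the same order of libraries. Of the 16 collagens, 12 were nearer to the shCtrl mean in replicate 2 than in either other shTPD52 library. Only 7 were below the shCtrl mean in all 3 libraries, 6 were below it in replicates 1 and 3 but not 2, and 3 were above it in all. Over all genes tested the median deviation was -0.10, -0.032 and -0.18 in replicates 1, 2 and 3, so replicate 2 lay nearest there too. Shares of all genes with these arrangements were not worked out, so the counts are not a trait of collagens. COL15A1 deviated by 0.37 in replicate 2 and by -0.17 and -0.32 in replicates 1 and 3, and COL25A1 by 0.13 against -0.66 and -1.09. COL13A1 showed no such split, at -0.52, -0.51 and -0.55. Without shTPD52 replicate 2, limma called 10 collagens lower (the 4 above and COL4A1, COL25A1, COL4A4, COL27A1, COL3A1 and COL4A2) and COL6A1 and COL7A1 higher, when 32.9% of all genes were called lower and 12.6% higher. That library was chosen because it lay nearest shCtrl, and calls over all genes rose from 2341 to 5825 without it, so the rise among collagens is no separate evidence. When any other single library was left out, 0 collagens were called in either direction, with 4 or 5 of 16 at an unadjusted p under 0.05 in limma. In those fits between 0.681% and 7.02% of all genes were called, and between 26.5% and 30.1% had an unadjusted p under 0.05, so these collagen counts lay near the background.

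Ratios within a library compare partner chains without regard to scaling between libraries, but they do not remove the relation with span. COL5A2 spans 193 kb beside 38.4 kb for COL3A1, and COL11A1 spans 232 kb beside 29.8 kb for COL11A2. The ratio of COL6A1 to COL6A2, chains of 1 trimer whose genes lie 93.0 kb apart on the same strand of chromosome 21, was 0.059, 0.066 and 0.059 in shCtrl and 0.098, 0.087 and 0.095 in shTPD52. The shTPD52 ratio was 1.53 times the shCtrl ratio, and replicate 2 stood with the other shTPD52 libraries. COL3A1 and COL5A2 lie 19.2 kb apart on opposite strands of chromosome 2, a pair added after the values were seen. The ratio of COL5A2 to COL3A1 was 0.196, 0.217 and 0.215 in shCtrl and 0.125, 0.154 and 0.110 in shTPD52. COL4A3 and COL4A4 start 0.112 kb apart on opposite strands, and the COL4A4 to COL4A3 ratio was 7.09 ± 0.96 in shCtrl and 5.57 ± 0.41 in shTPD52. For these 3 ratios the groups did not overlap, and the exact two-sided permutation p was 0.1, the smallest that 3 against 3 libraries allow, or 0.2 adjusted over 6 ratios. No ratio could therefore have passed, and the plan had been to set the values side by side without a test. COL4A1 and COL4A2, another pair that starts head to head, had a ratio of 0.447 ± 0.033 in shCtrl and 0.399 ± 0.053 in shTPD52 (exact permutation p = 0.3). The ratios of COL5A1 to COL5A2 and of COL11A1 to COL11A2, pairs that were not in the plan, also overlapped between groups, with exact permutation p-values of 0.3 and 0.2.

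**Figure D5:**
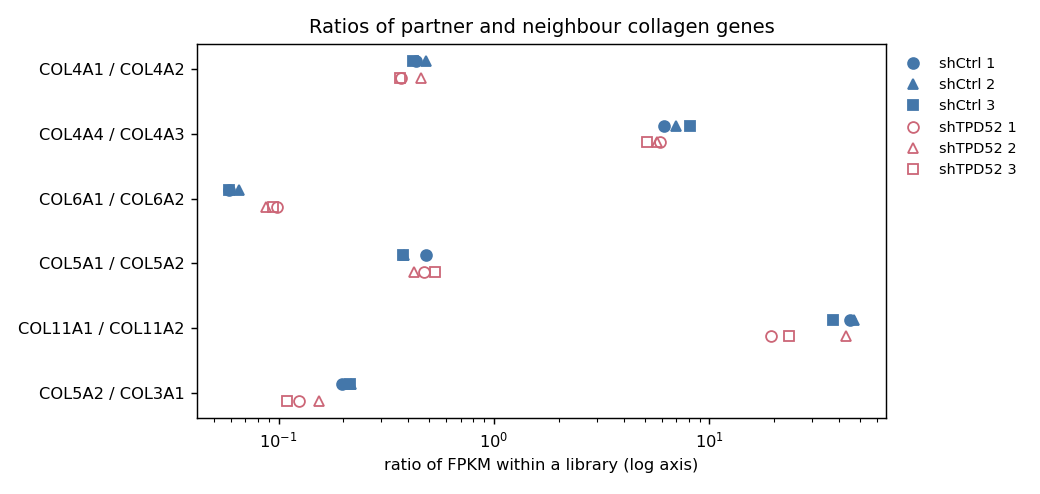
Ratio of FPKM within each library for pairs of collagen genes (log axis), shCtrl filled and shTPD52 open. The COL6A1 to COL6A2 ratio is higher in all shTPD52 libraries, and the COL5A2 to COL3A1 and COL4A4 to COL4A3 ratios are lower.

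Genes that process collagen were looked at beside the chains. Enzymes and chaperones that modify and fold the chains had 17 members tested, of which 0 were higher, 4 lower and 13 did not pass (of all genes 5.63% were higher and 12.7% lower), with a median log2 fold change of -0.11 like that of all genes. P4HA2, a subunit of prolyl 4-hydroxylase, went from 7.30 ± 0.64 to 4.96 ± 0.77 FPKM (log2 fold change -0.52, limma adjusted p = 0.0310). PLOD2, which hydroxylates lysines used in crosslinks, went from 23.8 ± 1.87 to 15.7 ± 3.96 FPKM (log2 fold change -0.61, limma adjusted p = 0.0404). COLGALT1, which adds galactose to collagen, fell by 0.34 (limma adjusted p = 0.0383). After the length and GC correction this list had 1 member called higher and 1 lower, beside 10.7% and 10% of all genes.

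Genes for procollagen export, trimming and crosslinking had 9 members tested, with 0 higher, 3 lower (12.7% of all genes were) and 6 not passed, and a median of -0.30. BMP1, the protease that removes the C-terminal propeptide of fibrillar procollagens, measured 3.90, 4.14 and 4.53 FPKM in shCtrl and 2.79, 2.75 and 2.58 FPKM in shTPD52. It fell by 0.55 (limma adjusted p = 0.0167), and its shTPD52 libraries were close to each other. SEC24D, a coat protein of the vesicles that carry procollagen, fell by 0.58 (limma adjusted p = 0.0376), and LOXL2, a lysyl oxidase that crosslinks collagen, fell by 0.47 (limma adjusted p = 0.0415). Among collagen receptors, 1 of 6 tested was higher, beside 5.63% of all genes, and 0 lower. It was ADGRG1, an adhesion receptor known to bind type III collagen, which rose by 0.48 on that scale (limma adjusted p = 0.0431).

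Of 10 tested genes of collagen breakdown and its control, 2 were higher, 1 was lower and 7 did not pass, where 5.63% of all genes were higher and 12.7% lower. TIMP1, an inhibitor of matrix metalloproteinases, rose from 99.5 ± 4.05 to 128 ± 12.4 FPKM (log2 fold change 0.36, limma adjusted p = 0.0352). CTSL, a lysosomal cathepsin, rose by 0.35 (limma adjusted p = 0.0340), and MMP15, a membrane-bound metalloproteinase, fell by 0.29 (limma adjusted p = 0.0474). A list of basement membrane and other matrix proteins, chosen with earlier results of these data known, had 13 members tested. Of these, 9 were lower, beside 12.7% of all genes, 0 were higher and 4 did not pass, with a median of -0.72. HSPG2, the proteoglycan perlecan, fell by 1.501 (limma adjusted p = 0.0117), FBN2, a fibrillin, by 1.23 (limma adjusted p = 0.0108), and FN1, fibronectin, by 1.04 (limma adjusted p = 0.0103). After the length and GC correction 7 of these 13 were lower, beside 10% of all genes.

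Of 15 tested genes of TGF-beta signaling, the pathway best known for inducing fibrillar collagen, 1 was higher, 3 were lower and 11 did not pass, where 5.63% of all genes were higher and 12.7% lower. SMAD3, its transcription factor, fell by 0.74 (limma adjusted p = 0.0158), and LTBP1, which tethers latent TGF-beta in the matrix, fell by 0.83 (limma adjusted p = 0.0250). Without shTPD52 replicate 2, when 32.9% of all genes were lower and 12.6% higher, modification and folding had 5 of 17 lower and 1 higher, and export, trimming and crosslinking had 6 of 9 lower and 0 higher. In that fit receptors had 3 of 6 lower and 1 higher, and breakdown had 3 of 10 lower and 2 higher. Basement membrane and other matrix proteins had 11 of 13 lower and 0 higher, and TGF-beta signaling had 7 of 15 lower and 2 higher. After the length and GC correction, with 10.7% of all genes higher and 10% lower, export, trimming and crosslinking had 1 higher and 2 lower. Receptors had 2 higher and 0 lower there, and TGF-beta signaling had 2 higher and 2 lower. Breakdown had 2 higher and 0 lower there, so MMP15 no longer passed. The genes named from these lists passed in between 5 of 21 alternatives (MMP15) and 19 of 21 (FBN2).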

How the data were processed

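RNA of 3 shCtrl and 3 shTPD52 libraries was sequenced in pairs, and groups and replicate numbers were taken from the sample titles. The authors deposited FPKM per gene and library. HISAT2 2.2.1, featureCounts 2.0.3 and GRCh38 (hg38) are listed in the submitters' processing notes. No source used here gives the annotation release or the strand setting. Without a stated strand setting, reads of COL5A1, COL15A1, COL18A1, COL4A1 and COL4A2 cannot be told apart from those of genes overlapping them on the other strand.

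From the deposited FPKM, reads per gene were worked back as whole multiples of the value of 1 read, using GENCODE 29 exon lengths for 12 collagens and searched lengths for 32. Odd numbers were 28% to 31.2% of counts between 1 and 20, so mates may have been counted singly, and counts in reads may stand for fewer fragments. The test covered genes averaging 1 FPKM or more and was run with limma 3.58.1 (R 4.3.3) on log2(FPKM + 0.5), with a trend in the prior variance and Benjamini-Hochberg adjustment, at 0.05. TPD52, under the filter, was added to its own fit of 12783 genes. The script was checked on simulated data. Spans and coordinates are from GENCODE 29. The correction for length and GC content was a loess per library (span 0.3), with GC content taken from each gene's longest GENCODE 29 transcript. Exonic lengths in it and in the comparisons by length were those used to work back reads, searched ones included.

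All collagens with at least 0.1 FPKM are named, with TPD52 and the 3 passing members with the smallest p of each other list. The value of 1 gene that this rule names is not reported here. Members, classes and lists were chosen with earlier results of these data known. Alternatives were other pseudocounts (0.1 and 1), filters (none, 0.1 and 5 FPKM), scalings, priors, a replicate block, limma-voom on recovered reads, protein-coding genes only, the corrections above, and leaving out each library.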

Additional observations from a re-analysis of the deposited data

How the results depend on the processing

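The number of collagens called higher, 0 as reported, was 1 under median-ratio scaling, 2 under quantile normalization, 4 once length and GC trends were removed, 2 after the correction for genomic span (added after seeing the data), and from 0 to 2 when 1 library was left out. The number called lower, 4 as reported, was 0 with no filter (where 9 of 44 had an unadjusted limma p under 0.05, beside 19.1% of all genes). It was 1 with a filter of 0.1 FPKM and 1 with a filter of 5 FPKM. The filter of 5 FPKM left 6 collagens to test, of which COL11A1 was called, with 1175 of 6455 genes called lower. COL5A1, COL5A2 and COL13A1 fell below that filter and were not tested. The number was 2 under median-ratio scaling, 2 after rescaling to reads outside mitochondrially encoded genes, 2 after either correction, and from 0 to 10 when 1 library was left out. Over all genes, 2341 were called, against 531 with no filter, 1426 with the filter of 0.1 FPKM and from 87 to 5825 when 1 library was left out. The share of lower calls among all calls moved from 1621 of 2341 genes to 1038 lower and 1083 higher under median-ratio scaling, 1188 lower and 1152 higher under quantile normalization, 1213 lower and 976 higher after the rescaling, 1276 lower and 1359 higher after the length and GC correction, and 1325 lower and 1318 higher after the span correction. The cause of these moves was not tested, apart from the fewer or additional genes and samples each setting tests.

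Some log2 fold changes turned positive. After the length and GC correction these were the collagen median (0.032), COL3A1 (0.060), COL27A1 (0.078), COL4A1 (0.030), COL4A2 (0.27), COL6A2 (0.034) and COL15A1 (0.19). After the span correction they were COL4A2 (0.071), COL15A1 (0.20) and COL26A1 (0.18). COL15A1 was 0.080 under median-ratio scaling, 0.034 after the mitochondrial rescaling, and from -0.25 to 0.097 when 1 library was left out. COL26A1 was 0.032 under median-ratio scaling and 0.070 under quantile normalization. With the replicate number as a block, 3 collagens were lower, 0 were higher and 3064 genes were called, COL5A1 having been lost. Same-numbered libraries correlated in their deviations at 0.045, 0.25 and 0.022, and not every library correlated best with its own number, so the numbers were not taken to pair the libraries. COL5A2 passed in 13 of 20 alternatives, COL13A1 in 12 of 20, COL11A1 in 11 of 21 and COL5A1 in 6 of 20. The tested collagens held between 261 and 13481 reads per library, and depth limits mainly the 20 genes under 0.1 FPKM.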
